A study of Mus musculus with 18 samples.

Results

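The 10 contractile genes Acta2, Actg2, Tagln, Cnn1, Myl9, Tpm1, Tpm2, Cald1, Myh11 and Lmod1 were followed in mouse embryonic fibroblasts (MEFs), connective tissue cells cultured from mouse embryos. They were chosen by symbol, all 10 were found among the 55487 genes of the count table, and all 10 were among the 13865 genes that passed the filter on low counts. Uracil was added to serum-containing growth medium at 10 µM or 30 µM and left on the cells for 24 h, control cells received none (0 µM), and total RNA was sequenced from 6 libraries per dose. The libraries of each dose carry the numbers 1 to 6, so that every number holds 1 library of each dose. The labels do not say what a number stands for, whether the numbered cultures came from different embryos, or the strain, age or genotype of the cells. The study describes the samples as biological replicates without saying what was independent between them, and p-values measure the spread between these libraries.

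Myofibroblasts are fibroblasts that have built the contractile apparatus of smooth muscle: actin filaments packed into stress fibres, pulled by myosin and anchored to the surrounding matrix. Many genes of this apparatus are switched on by serum response factor (SRF) together with myocardin-related cofactors, which bind a short promoter element called the CArG box, and cultured fibroblasts spread on stiff plastic in serum are known to express a good part of the set. The libraries measure RNA of these genes, not protein or contraction. Counts per gene do not separate the transcripts of a gene, of which the annotation lists 80 for Tpm1, 43 for Tpm2 and 30 for Cald1. Uracil was added to ask whether this product of uridine breakdown alters fibroblasts.

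Promoters of the 3 genes below are shown because Acta2 is the classical myofibroblast marker, Myl9 holds the only exact CArG box among the members searched, and Lmod1 is one of the genes whose level differed most between numbers. Each is the 250 bases before the RefSeq transcription start on GRCm38.p6, written 5′ to 3′ on the strand of the gene, with CArG boxes in capitals. A box was counted with at most 1 letter of its AT core off. Acta2 lies at chr19:34255374-34255623 on the minus strand, Myl9 at chr2:156775214-156775463 on the plus strand and Lmod1 at chr1:135324563-135324812 on the plus strand.
Acta2: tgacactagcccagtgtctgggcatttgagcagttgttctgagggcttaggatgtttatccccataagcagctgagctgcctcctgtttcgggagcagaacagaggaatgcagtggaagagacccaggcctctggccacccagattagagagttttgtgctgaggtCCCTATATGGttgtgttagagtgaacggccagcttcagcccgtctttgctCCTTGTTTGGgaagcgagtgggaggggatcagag
Myl9: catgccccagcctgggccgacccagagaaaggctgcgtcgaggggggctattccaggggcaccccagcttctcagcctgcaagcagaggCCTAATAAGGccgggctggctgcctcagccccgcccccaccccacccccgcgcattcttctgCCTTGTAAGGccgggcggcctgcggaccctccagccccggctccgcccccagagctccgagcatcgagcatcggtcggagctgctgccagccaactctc
Lmod1: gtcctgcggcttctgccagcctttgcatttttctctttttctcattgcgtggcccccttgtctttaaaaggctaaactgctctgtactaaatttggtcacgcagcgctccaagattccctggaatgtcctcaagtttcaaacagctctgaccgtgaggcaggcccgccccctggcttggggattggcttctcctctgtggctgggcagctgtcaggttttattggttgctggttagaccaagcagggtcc

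The 2 boxes of Acta2 begin 84 and 34 bases before the start and both are 1 letter off. In Myl9 the exact box begins 161 bases before the start and a box that is 1 letter off begins 99 bases before it. Among 32851 RefSeq promoters of the same length, 1.47% held an exact box and 8.59% held a box with at most 1 letter off. The table had a promoter for 7 of the 10 genes, and the windows of Lmod1, Tpm1, Tpm2, Cnn1 and both starts of Cald1 held no such letters. Actg2, Tagln and Myh11 were not matched.

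Between 11.6 M and 20.8 M read pairs were counted on genes in 15 of the 18 libraries, and 1.72% to 3.59% of their pairs were unaligned. The other 3 libraries stood apart. Control 1 had 54.2% of its pairs unaligned and only 3.96 M gene counts, 30 µM number 6 had 37.9% unaligned and 7.39 M gene counts, and 10 µM number 6 had 5.24% unaligned. The study left out 1 vehicle and 1 30 µM sample because of human RNA contamination, but the labels do not name them, so that results are given for all 18 libraries and again for the 15. Levels are CPM, that is, gene counts set to a common library total, after scaling by the trimmed mean of M-values (TMM), and levels of different genes were compared only as RPKM, which also divides by the length of the exons.

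Contractile transcripts were abundant. Together the 10 genes took between 0.711% and 1.04% of all gene counts of a library. Acta2, the smooth muscle α-actin that defines the myofibroblast (chr19:34217737-34232990 on GRCm39, minus strand), was the highest of them with 1022 ± 99.0 RPKM (SD, n = 18). Tagln, the actin-bundling protein transgelin (chr9:45840909-45847404, minus strand), followed with 635 ± 58.5 RPKM. The ranges of Acta2, 803 to 1150 RPKM, and Tagln, 514 to 694 RPKM, did not overlap.

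Below them stood the tropomyosin Tpm1 (chr9:66929870-66956953, minus strand) with 262 ± 27.8 RPKM and Myl9, the regulatory light chain through which phosphorylation turns on myosin (chr2:156617084-156623579, plus strand), with 218 ± 26.5 RPKM. The Tpm1 and Myl9 ranges overlapped. Tpm2 (chr4:43514697-43524949, minus strand), Actg2, the smooth muscle γ-actin (chr6:83489887-83513551, minus strand), and Cnn1, the actin-binding protein calponin (chr9:22010512-22020926, plus strand), had nearly the same level. Tpm2 had 104 ± 10.0 RPKM, Cnn1 had 101 ± 16.7 RPKM, and Actg2 had a mean of 102 RPKM with a range of 78.3 to 116 RPKM. Their order was not resolved, and Cnn1 became the highest of the 3 in the 15 libraries. Cald1, caldesmon (chr6:34575435-34752408, plus strand), had 83.6 ± 8.83 RPKM and overlapped with these 3.

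The lowest members were Lmod1 and Myh11, which are regarded as particular to mature smooth muscle. Actg2 and Cnn1, listed here as smooth muscle markers too, stood near Tpm2. Lmod1, a leiomodin that nucleates actin filaments (chr1:135252509-135295907, plus strand), had 14.2 ± 4.11 RPKM. Myh11, the smooth muscle myosin heavy chain (chr16:14012399-14109236, minus strand), had 0.856 ± 0.527 RPKM, counted on 18 to 251 read pairs per library. Both stood below all other members in all 18 libraries, and their SDs were the largest relative to the mean. With the length of the longest transcript in place of all exons the order of the first 4 and last 2 genes did not change, but Cald1 moved from rank 8 to rank 5.

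**Figure D1:**
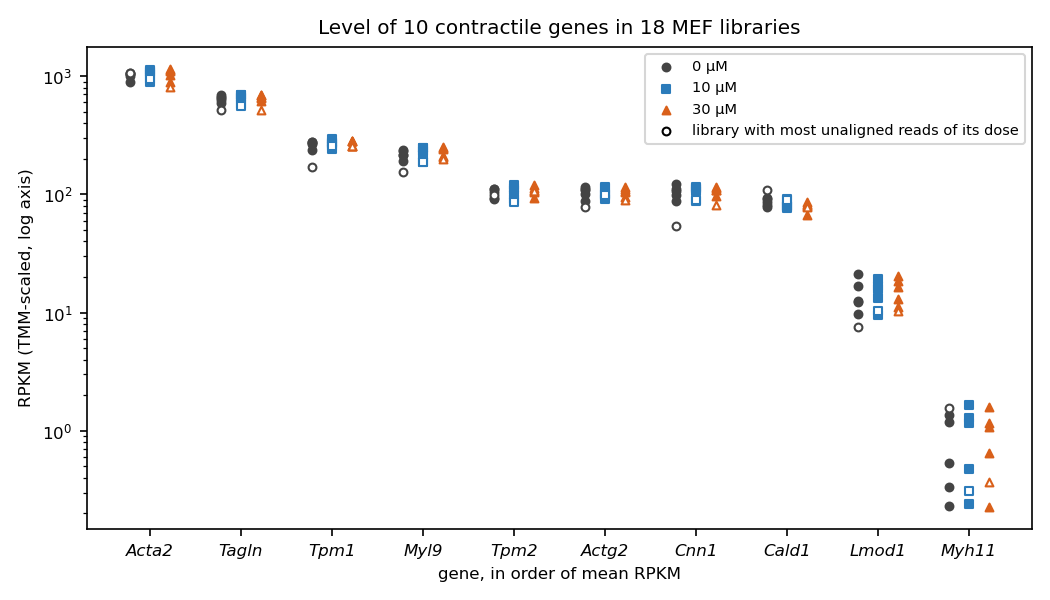
RPKM of the 10 contractile genes (log axis) in the 18 libraries, in order of the mean, with control as circles, 10 µM as squares and 30 µM as triangles; open symbols are the 3 libraries with the most unaligned pairs. Acta2 lies at 803 to 1150 RPKM and Myh11 at 0.226 to 1.65 RPKM, and the doses lie on top of each other for each gene.

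In several members, a gene on the opposite strand overlaps the locus: Stambpl1 at Acta2, Pcsk7 at Tagln, Elof1 at Cnn1 and 5730471H19Rik at Myl9. These neighbours had means of 26.0, 33.8, 46.2 and 5.18 CPM, against 3298 CPM for Acta2, 1298 CPM for Tagln, 278 CPM for Cnn1 and 499 CPM for Myl9. The strand setting of the counting is not given in the sources used here, so that some pairs could be assigned to the wrong partner. Identical sequence was rarely shared: 0 of the 75-base windows of 9 members occurred unchanged in annotated transcripts of another gene, and 0.173% of those of Tpm1 did. Copies that differ within a window or lie outside annotated transcripts were not searched for.

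Uracil did not detectably change any of the 10 genes. In edgeR's quasi-likelihood test, 0 of the 10 members passed an adjusted p of 0.05 for either dose against control, for the difference between the 2 doses or for any difference among the 3, beside 0 of 13865 genes in each of these tests (0%). At an unadjusted p under 0.05, 595 genes (4.29%) and 1 member, Cald1, were called at 30 µM against control, 96 genes (0.692%) and 0 members at 10 µM, 323 genes (2.33%) and 0 members at 30 µM against 10 µM, and 212 genes (1.53%) and 0 members among the doses. DESeq2 and limma voom also called 0 genes after adjustment in each of these tests.

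Acta2 measured 2890 CPM in the lowest control library, 3366 CPM at the median and 3451 CPM in the highest. At 10 µM the values were 2873, 3423 and 3658 CPM, and at 30 µM they were 2591, 3448 and 3712 CPM. The ranges overlapped, that of 30 µM reaching beyond control at both ends, and the log2 fold change of Acta2 at 30 µM was 0.0017 ± 0.090 (SE), with a 95% interval from -0.19 to 0.19. At 10 µM it was 0.022 ± 0.090.

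The other actin gene behaved alike. Actg2 ranged over 173 to 255 CPM in control, 200 to 258 CPM under 10 µM and 197 to 257 CPM under 30 µM uracil, so that the doses overlapped almost fully. At 30 µM its log2 fold change was 0.046 ± 0.094, and with 10 µM it was 0.030 ± 0.094.

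Among the actin-binding proteins, Tagln had a median of 1314 CPM in control, which compares with 1342 CPM under 10 µM and 1354 CPM under 30 µM uracil, and its log2 fold change at 30 µM was 0.030 ± 0.086. Cnn1 had a lowest, median and highest level of 147, 279 and 337 CPM in control, 240, 297 and 315 CPM at 10 µM, and 224, 298 and 315 CPM at 30 µM. Control 1 was the library at 147 CPM, and the other 5 control libraries lay inside the range of the treated ones except for the highest. The log2 fold change of Cnn1 at 30 µM was 0.11 ± 0.15 with all libraries.

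Cald1, which holds back the actomyosin interaction and stabilises actin filaments, was the single member with a log2 fold change below 0 at both doses. Its control libraries measured 1063 CPM at the lowest, 1200 CPM at the median and 1465 CPM at the highest. At 10 µM the values were 1040, 1076 and 1236 CPM, and at 30 µM they were 907, 1089 and 1163 CPM. The highest value came from control 1, the dose groups overlapped, and within numbers Cald1 was higher at 30 µM than in control in 1 of 6 numbers. The log2 fold change at 30 µM was -0.18 ± 0.081, with an interval from -0.35 to -0.011, and it failed correction in edgeR's test with an adjusted p of 0.931 (unadjusted p = 0.0379). Without the 3 libraries it was -0.12 ± 0.065 (adjusted p = 0.944 by edgeR). An exact two-sided permutation of its mean CPM over all splits of 6 against 6 libraries gave p = 0.0541.

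The 2 tropomyosins, which wind along the actin filament and set its access to myosin, were close to control. Tpm1 measured 1365, 2162 and 2232 CPM (lowest, median and highest) in control, 1956, 2176 and 2389 CPM at 10 µM, and 2056, 2181 and 2295 CPM at 30 µM. Control 1 again held the lowest value, far below the other 5 control libraries at 1912 to 2232 CPM. The log2 fold change of Tpm1 at 30 µM was 0.11 ± 0.097 with all libraries and 0.032 ± 0.054 without the 3. That of Tpm2, which ranged over 387 to 474 CPM in control and 396 to 510 CPM at 30 µM, was 0.081 ± 0.083.

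In the myosin genes, Myl9 had a median of 494 CPM in control, against 514 CPM with 10 µM and 518 CPM with 30 µM uracil, and a log2 fold change at 30 µM of 0.12 ± 0.10. Myh11 spanned 1.76 to 11.9 CPM in control with a median of 6.53 CPM, 1.84 to 12.5 CPM at 10 µM with a median of 6.20 CPM, and 1.72 to 12.1 CPM at 30 µM with a median of 6.57 CPM. Each dose thus held nearly the whole range of this gene. The mean CPM was slightly lower at 30 µM than in control, 6.45 against 6.59 CPM, while the fitted value lay above 0. Its log2 fold change at 30 µM was 0.054 ± 0.57, and the interval ran from -1.14 to 1.25. This fit has dose alone, so that the spread of Myh11 between numbers enters its error; with the replicate number as a block the value was -0.018 ± 0.099.

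Lmod1 spanned 31.0 to 87.2 CPM in control with a median of 50.6 CPM, 39.4 to 79.1 CPM at 10 µM with a median of 59.8 CPM, and 41.8 to 82.7 CPM at 30 µM with a median of 60.7 CPM. Here too the doses overlapped. The log2 fold change at 30 µM was 0.15 ± 0.24, and its interval ran from -0.35 to 0.65. As for Myh11, the spread between numbers enters this error, and number held 71.1% of the variance of log2 CPM of Lmod1.

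Across the 10 genes the log2 fold changes lay between -0.18 and 0.15 at 30 µM and between -0.11 and 0.11 at 10 µM. At either dose 9 of 10 were above 0, and their median was 0.067 at 30 µM and 0.038 at 10 µM, beside 0.012 and 0.0059 over all genes tested. Both doses were set against the same control libraries, and the counts moved with the libraries kept. Without control 1 alone, 6 of 10 were above 0 at 30 µM (median 0.014) and 5 of 10 at 10 µM (median -0.0055). In the 15 libraries 9 of 10 were above 0 at 30 µM (median 0.053) and 8 of 10 at 10 µM (median 0.035). With the replicate number as a block in these 15, they were 7 of 10 (median 0.024) and 4 of 10 (median -0.0068). For 7 of the 10 genes, all but Cnn1, Lmod1 and Myh11, the 95% intervals at 30 µM stayed within -0.35 and 0.34. Exact permutation of the mean CPM gave p between 0.0541 and 0.987 over the 20 pairs of gene and dose, with adjusted p of 0.936 to 0.987, where the smallest p the design allows is 0.00216.

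**Figure D2:**
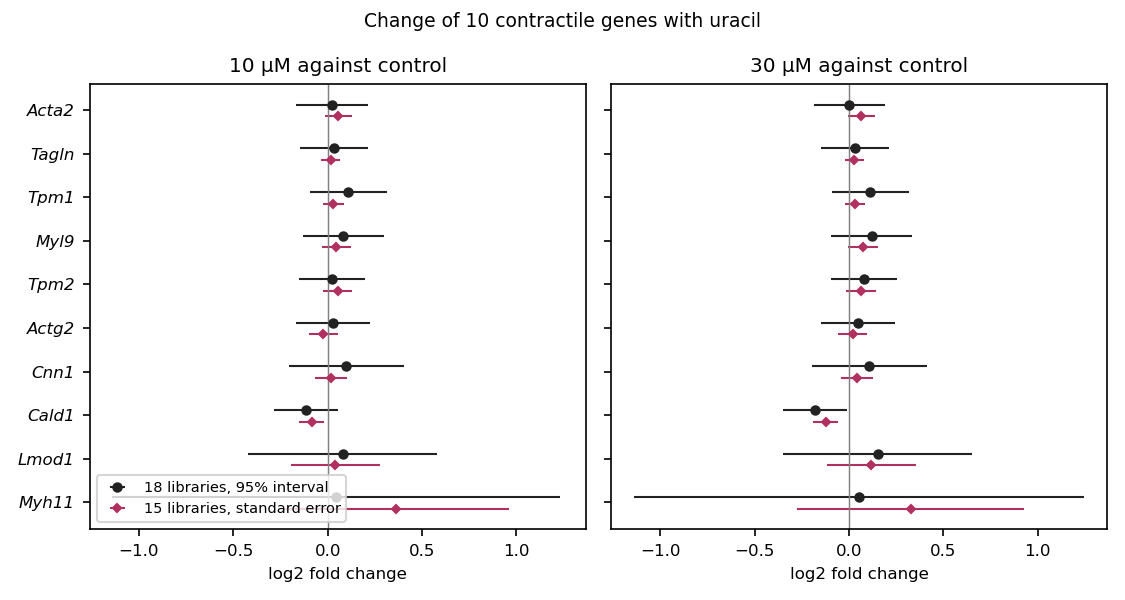
Log2 fold change of the 10 contractile genes at 10 µM (left) and 30 µM (right) against control, from edgeR; circles show all 18 libraries with 95% intervals, and diamonds show the 15 libraries with standard errors. The Cald1 interval at 30 µM, -0.35 to -0.011, lies below 0 before adjustment, and the Myh11 interval, -1.14 to 1.25, is the widest.

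Several of the genes differed between replicate numbers. In the fit with dose and number, 1745 of 13865 genes (12.6%) passed an adjusted p of 0.05 for number, and so did 3 of the 10 members, Myh11, Lmod1 and Acta2. With the 15 libraries 2890 of 13888 genes (20.8%) passed, and so did 9 of the 10 members, all except Cald1. The call of Acta2 was weak with 18 libraries, since leaving out single libraries moved its adjusted p between 0.0065 and 0.162, and scaling by library totals alone took it to 0.180. Those of Myh11 and Lmod1 held whichever library was left out, although with no filter on low counts the adjusted p of Lmod1 was 0.0545.

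Myh11 measured 11.9, 12.5 and 12.1 CPM in number 1 (control, 10 µM and 30 µM in this order), 9.02, 9.79 and 8.89 CPM in number 2, and 10.3, 8.76 and 8.22 CPM in number 3. It was lower in number 4 with 4.04, 3.64 and 4.93 CPM, lowest in number 5 with 1.76, 1.84 and 1.72 CPM, and again low in number 6 with 2.52, 2.36 and 2.79 CPM. Libraries of one number lay close together at all 3 doses, number 1 lay above every other number, and number 5 lay below every other number. The highest number mean was 6.87 times the lowest (6.96 times in the 15 libraries), and edgeR's test of number gave an adjusted p of 2.05e-08. Number held 98.9% of the variance of log2 CPM of Myh11 and dose held 0.0403%, against medians of 41.1% and 7.97% over the genes with a mean of at least 1 CPM.

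Lmod1 followed number as well. Its libraries measured 31.0, 65.2 and 67.7 CPM for number 1, 87.2, 79.1 and 82.7 CPM for number 2, and 68.3, 68.8 and 75.4 CPM in number 3. Number 4 was lower at 50.2, 54.5 and 53.7 CPM. Number 5 followed with 39.7, 39.4 and 45.2 CPM, and number 6 had 50.9, 42.4 and 41.8 CPM. Number 2 was the highest at every dose, number 5 lay below numbers 2, 3 and 4 at every dose, and control 1 stood far from the other libraries of its number. The mean of number 2 was 2.00 times that of number 5, and the adjusted p for number was 0.00833 with all libraries and 1.51e-09 with the 15, by edgeR.

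The remaining 8 genes differed less. In Acta2 the number means were 3596, 3466, 3607, 3359, 2886 and 3208 CPM for numbers 1 to 6 in the 15 libraries, where number 6 is left with 1 library. Number 5 was low, at 2873 to 2894 CPM in its 3 libraries, and the other 12 libraries lay at 3208 to 3712 CPM. The highest number mean of these 8 genes was 1.14 times (Tagln) to 1.28 times (Tpm2) the lowest, where the median gene had 1.21 times. At least 2 times was reached by 801 of 13044 genes with a mean of at least 1 CPM (6.14%), among them 2 of the 10 members, Myh11 and Lmod1.

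Number 5 was the low number for nearly the whole set in the 15 libraries. There its mean was the lowest of the 6 numbers for 9 of the 10 members, as it was for 17.3% of the 13044 genes, and only Tpm2 was lowest in number 6. With all 18 libraries the lowest mean was in number 6 for Tagln, Cnn1 and Tpm2 and in number 1 for Tpm1. All 3 libraries of number 5 lay below all 12 others for 7 of the 10 members (Acta2, Actg2, Tagln, Cnn1, Tpm1, Myh11 and Lmod1), and for 2.68% of the 13044 genes. In Tagln, for example, number 5 measured 1186 to 1267 CPM and the others 1290 to 1419 CPM, and in Cnn1 240 to 263 CPM against 268 to 337 CPM. Number 6 is left with 1 library here. The 10 µM library of number 6, set apart with 5.24% unaligned pairs, measured 1152 CPM for Tagln, 244 CPM for Cnn1 and 42.4 CPM for Lmod1. With all 18 libraries, number 5 lay below every other library for Myh11 only. Control 1 measured 173 CPM for Actg2, 1058 CPM for Tagln, 147 CPM for Cnn1, 1365 CPM for Tpm1 and 31.0 CPM for Lmod1. The 30 µM library of number 6 measured 2591 CPM for Acta2. Number 5 was singled out after the values were seen, and these counts are a description.

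**Figure D3:**
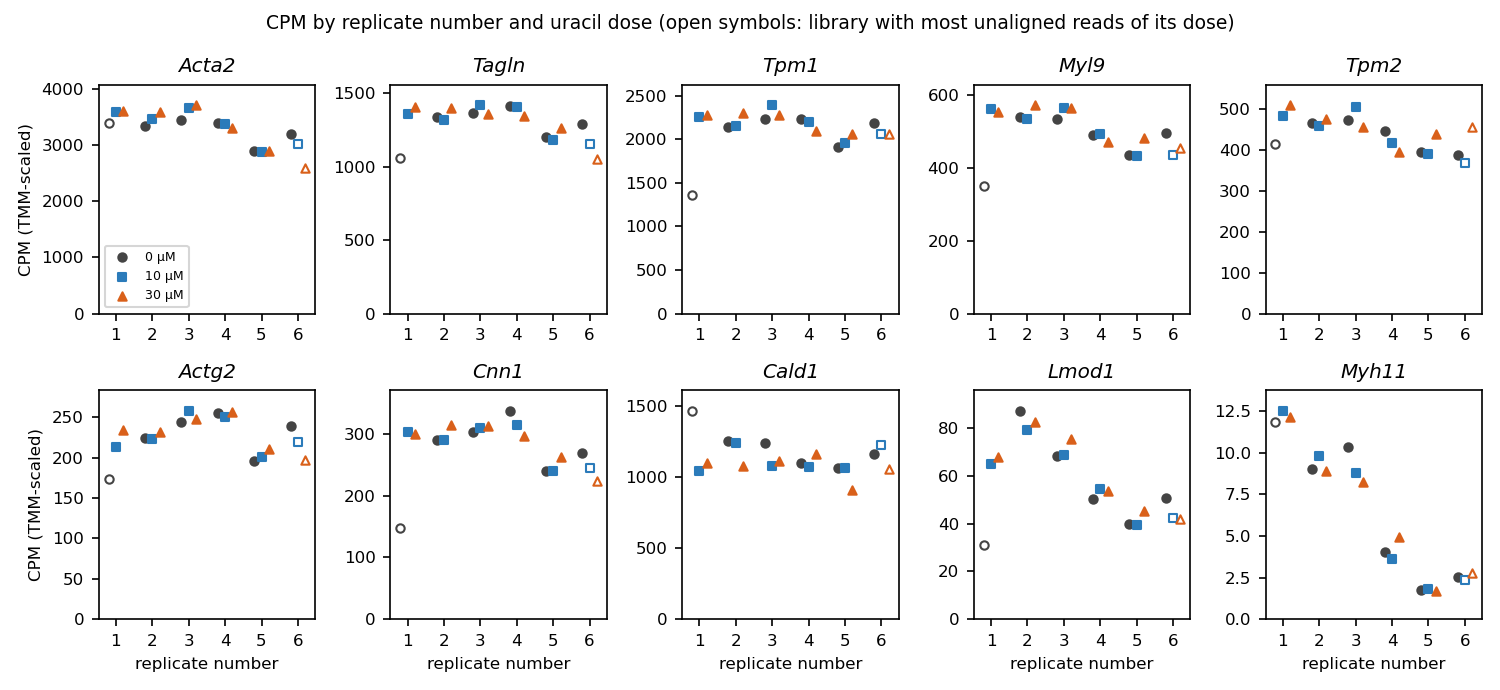
TMM-scaled CPM of each contractile gene by replicate number 1 to 6, with control as circles, 10 µM as squares and 30 µM as triangles, each axis starting at 0; open symbols are the 3 libraries with the most unaligned pairs. Myh11 falls from 11.9 to 12.5 CPM in number 1 to 1.72 to 1.84 CPM in number 5 at every dose, whereas Tagln changes little apart from numbers 5 and 6 and control 1.

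**Figure D4:**
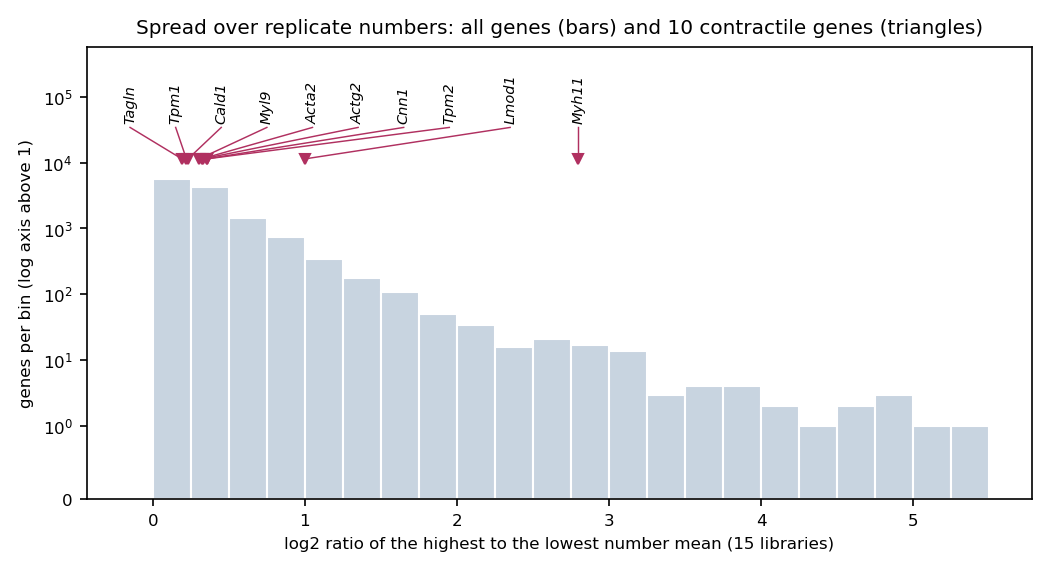
Log2 ratio of the highest to the lowest mean over replicate numbers in the 15 libraries, as a histogram of 13041 genes (genes per bin on a log axis above 1; 3 genes with a number at 0 are not drawn), with the 10 contractile genes as triangles above it. Myh11 has a larger ratio than 99.6% of genes and Lmod1 than 93.9%, and the other 8 lie with most genes.

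Other values moved with number beside the contractile genes, and their part in these differences was not tested. In the 15 libraries, pairs under the alignment quality limit made up 4.79% to 6.59% of pairs in number 1, 7.76% to 13.1% in number 5 and 11.7% in the remaining library of number 6. Of the mesothelial and epithelial markers tested, 6 of 8 passed the number test with 18 libraries, beside 12.6% of all genes. The summed level of the list over the 15 was 119, 111, 117, 216, 280 and 212 CPM in numbers 1 to 6. Msln, the mesothelial surface protein mesothelin, went from 31.2 CPM in number 1 to 105 CPM in number 5, and Upk3b, another mesothelial marker, from 5.60 to 35.5 CPM and the keratin Krt14 from 4.56 to 27.3 CPM, opposite to Myh11. The keratin Krt18 and Epcam, which did not pass the filter on low counts, fell between these numbers. Krt18 went from 1.66 to 0.169 CPM and Epcam from 0.783 to 0.0725 CPM. Over all libraries the keratin Krt19 had 66.4 CPM, the epithelial cadherin Cdh1 1.65 CPM and Epcam 0.379 CPM. Among the pericyte markers 4 of 5 passed, beside the same 12.6% of all genes. The sum of the list over the 15 was 440, 451, 444, 361, 305 and 307 CPM in numbers 1 to 6. The markers that passed did not share 1 course. Pdgfrb measured 232, 147 and 130 CPM in numbers 1, 5 and 6, and Mcam 92.1, 92.7 and 117 CPM. In RNA from whole cultures, fewer cells of a type and less RNA per cell cannot be told apart.

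Several defining markers of muscle, vessel and blood were near 0, but not all markers of these lists were. Myocd, the smooth muscle coactivator myocardin, had a mean of 0.152 CPM, Kcnmb1, the channel subunit of smooth muscle, 0.169 CPM, and Des, desmin, 1.02 CPM. Of the skeletal muscle genes Myod1 was at 0 in all 18 libraries, and Myog, Myh3 and Ckm had at most 2 counts in a library. Pecam1 and Cdh5 of endothelium and Ptprc of blood cells had means of 0.147, 0.0741 and 0.0678 CPM. Others of these lists were higher, among them the endothelial genes Kdr and Erg with 6.40 and 4.38 CPM, the cardiac troponin Tnnt2 with 12.1 CPM, and the smooth muscle genes Smtn and Itga8 with 83.1 and 9.24 CPM. Against the same 12.6% of all genes, the test of number called 1 of 4 skeletal and cardiac muscle genes, 1 of 3 endothelial, 0 of 3 blood cell and 0 of 2 neural genes tested, and 5 of 13 fibroblast genes. The 13 fibroblast markers ranged widely, from 4.58 CPM for Lum and 119 CPM for Dcn to 9839 CPM for Col1a1 and 9900 CPM for Col1a2.

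Genes that work with the members gave the same picture for dose: 0 passed at 10 µM or 30 µM in any list given here. Levels by number in this paragraph are means over the 15 libraries, where number 1 lacks control 1 and number 6 is left with 1 library. For number, beside the 12.6% of all genes that passed with 18 libraries, 2 of 16 other actin, myosin and tropomyosin family genes passed. The first was Acta1, skeletal α-actin, at 28.7 CPM in number 1 against 15.9 CPM in number 6. The other was Myh10, a nonmuscle myosin heavy chain, whose mean was 837 CPM for number 1 against 1046 CPM for number 5. Of SRF, its cofactors and related factors 3 of 11 passed, Fhl1, Fhl2 and Gata6. None of 20 focal adhesion and stress fibre genes passed, though 10 of 15 myofibroblast activation genes did. Postn, the matrix protein periostin, measured 212 CPM in number 1, 99.1 CPM in number 5 and 80.0 CPM in number 6. Of the smooth muscle markers besides the members 2 of 5 passed, Itga8 and Mustn1, and Itga8, an integrin of smooth muscle and mesenchyme, went from 12.4 CPM in number 1 to 5.82 CPM in number 5.

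The members did not all follow one course over the 15 libraries. Pearson's r of log2 CPM between 2 members ran from 0.058 for Tpm2 with Cald1 to 0.963 for Tagln with Cnn1. Genes with the course most like that of Acta2, among 9038 protein-coding genes with a mean of at least 10 CPM, were Igfbp7 (r = 0.961), Glipr2 (0.961), Cap1 (0.954), Tnc (0.953) and Prss23 (0.942). Closest to the mean course of the 10 members were Tnc (0.979), Igfbp7 (0.977), Loxl2 (0.964), Galnt17 (0.956) and Ext1 (0.955). Tnc encodes the matrix protein tenascin C, Igfbp7 a secreted binding protein and Loxl2 an enzyme that cross-links collagen. The 15 points share cultures within a number, and the values are descriptions over these libraries.

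The 3 libraries set apart differed from their dose mates in the members as well. Control 1 was below all 5 other control libraries for 6 of the 10 genes and above them for 2, 30 µM number 6 was below for 6, and 10 µM number 6 was below for 2. Cnn1 in control 1, 147 CPM, was 0.510 times the mean of the other control libraries.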

How the data were processed

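Per the file headers and the labels, the authors deposited raw counts of read pairs per Ensembl gene, not normalised, from stranded, ribosome-depleted total RNA. The submitters' processing notes name FastQC, HISAT2, SAMtools 1.2, HTSeq and the human build GRCh38, although the gene identifiers are those of mouse; the annotation release and strand setting are not given in the sources used here. Neither library sizes nor tests used the 5 entries of uncounted pairs, which are unaligned, outside genes (6.85% to 15.5% of pairs), ambiguous between genes (0.503% to 1.64%), of low alignment quality (4.79% to 13.1%) or aligned more than once (5.59% to 20.2%). All 18 columns matched a sample by name, and 0 matched none.

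GENCODE M39 (GRCm39) supplied symbols for 51731 of 55487 identifiers, coordinates and the exon lengths for RPKM. The main tests used edgeR 4.0.16 under R 4.3.3 (filterByExpr on dose, TMM, robust quasi-likelihood fits with dose alone; dose and number for the test of number). P-values were adjusted by Benjamini-Hochberg over all genes tested, with a threshold of 0.05, and SEs are log2 fold changes divided by the root of F. Alternatives were DESeq2 1.42.0, limma 3.58.1 (voom with quality weights), other scalings and filters, the replicate number as a block, and fewer libraries. Number 5 was compared with the others only as a description. Counting error alone would understate the spread, since libraries of one dose also differ beyond it. Reads carry no molecular identifiers. Scripts were tested on simulated data.

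The members, the other gene lists and the 3 libraries set apart were chosen with earlier results of these data known. All members are named, and so are the 5 genes most like Acta2 or the member mean. Genes of the lists were drawn from those of highest level and those with the smallest p for number. Genes near 0 that define another cell type were drawn on too. Not every such gene is named, nor a gene of every list. Postn, Itga8 and the other list genes follow this rule. The result of 1 further gene list is not reported here.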

Additional observations from a re-analysis of the deposited data

Results flagged for a closer look

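Tpm1 in control 1 was the single value that stood apart by Dixon's test: it measured 1365 CPM where the other 5 control libraries measured 1912 to 2232 CPM, and the gap to the nearest of them was 0.631 of the whole range. This was 1 of 30 groups of gene and dose tested, and chance flags about 1 in 20 groups. Control 1 is also the library with 54.2% unaligned pairs; the part of this in the low Tpm1 value was not tested.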

How the results depend on the processing

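The dose tests called 0 genes and 0 members under every alternative run, and the test of number was the one that moved. Genes called by number were 1745 in the fit as reported, 2989 with DESeq2, 5959 with voom, 3287 without control 1 and 30 µM number 6, 2890 without the 3 libraries, and 1272 to 3498 when single libraries were left out (3498 without control 1, 3271 without control 6). Members called by number were 3 as reported, 1 with no filter on low counts (Myh11), 8 with voom, 9 without 2 or 3 libraries, and 2 to 8 when single libraries were left out (8 without control 1). The cause was not tested.

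With the replicate number as a block the dose tests again called 0 genes and 0 members, and unadjusted p under 0.05 was reached by 937 genes at 30 µM against control (595 without the block), 161 at 10 µM (96), 588 between the doses (323) and 386 among all 3 (212). The SE of Myh11 at 30 µM was 0.099 with the block and 0.57 without it. Deviations of libraries with the same number correlated over 0.1 in 16 of 18 pairs, the 2 others being those of control 1, and in 12 of 13 pairs without the 3 libraries (medians of 0.404 and 0.323, against -0.065 and -0.14 for pairs of other numbers). Of the libraries, 14 of 18 correlated best with their own number (8 of 14 without the 3). Libraries with the same number thus often deviated together, but the dose fits reported carry no block, since not every pair passed 0.1 and the labels do not say what a number shares.

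Log2 fold changes near 0 changed sign in 51 combinations of gene, dose and setting, none of them called. At 30 µM against control Acta2 was -0.014 with library totals alone, -0.00088 with at least 10 counts in every library and -0.0073 with the block, Myh11 was -0.017 with DESeq2, -0.018 with the block and -0.079 with the block and 15 libraries, and Tpm2 was -0.0064 with the latter. At 10 µM Myh11 was -0.013 with DESeq2, -0.041 with the block and -0.063 with the block and 15 libraries. The last setting gave -0.0019 for Tagln, -0.013 for Cnn1, -0.020 for Tpm2 and -0.012 for Lmod1. Without control 1 and 30 µM number 6 the values at 10 µM were -0.028 for Actg2, -0.014 for Tagln, -0.018 for Cnn1 and -0.029 for Lmod1, and in the 15 libraries Actg2 was -0.023. When single libraries were left out, the range at 30 µM was -0.036 to 0.061 for Acta2, -0.018 to 0.090 for Actg2, -0.022 to 0.084 for Tagln, -0.016 to 0.19 for Cnn1 and -0.23 to 0.28 for Myh11. At 10 µM it was -0.0064 to 0.065 for Acta2, -0.033 to 0.076 for Actg2, -0.018 to 0.071 for Tagln, -0.023 to 0.18 for Cnn1, -0.025 to 0.071 for Tpm2, -0.26 to 0.27 for Myh11 and -0.032 to 0.26 for Lmod1.

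Myh11 rested on 18 to 251 counts per library.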

Other observations

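The genes most like Myh11 and Lmod1 over the 15 libraries were looked up after the values of these members were seen. For Myh11 they were Wipi1, Ddah1, Coch, Ctxnd1 and Pappa (r of 0.981 to 0.977), and for Lmod1 they were Adm, Lurap1l, Col11a1, Lmcd1 and Thbs1 (0.980 to 0.968).

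Some genes of the myofibroblast and fibroblast lists that passed the test of number had another order over the numbers than the contractile genes. Ccn2, a matricellular growth factor, had means of 353, 660, 597, 400 and 306 CPM in numbers 1 to 5 and 661 CPM in the remaining library of number 6. Dcn, the collagen-binding proteoglycan decorin, was highest in number 5 with 209 CPM, where the contractile genes were low, and lowest in number 3 with 65.4 CPM.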
